A study of Mus musculus with 94 samples.

Results

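A set of 10 genes of TGF-beta and Smad signalling was followed through single haematopoietic stem cells labelled Ski-KO or Ski-WT. The 10 genes were taken by name from the 13244 genes of the expression table: the receptor genes Tgfbr1, Tgfbr2 and Bmpr2, the signal transducer genes Smad1, Smad2, Smad3 and Smad4, the inhibitor gene Smad7 and the co-repressor genes Skil and Tgif1. All 10 were in the table. A filter asked that a gene exceed 0 in 25% or more of either genotype's cells; 7 of the 10 passed it, and Tgfbr1, Smad2 and Smad4 did not.

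TGF-beta binds the type II receptor encoded by Tgfbr2, which recruits and activates the type I receptor encoded by Tgfbr1. The active type I receptor phosphorylates Smad2 and Smad3, and these join Smad4 and enter the nucleus to change transcription. Bone morphogenetic proteins use other receptors, among them that of Bmpr2, and act through Smad1 and its relatives. Smad7 blocks the type I receptors, and Ski, Skil (also called SnoN) and Tgif1 repress transcription at sites where Smads are bound. TGF-beta itself turns on Skil and Smad7 in a range of cells, so that each acts in negative feedback. In haematopoietic stem cells TGF-beta is known for keeping cells out of division.

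The cells were stem cells of C57BL/6 mouse fetal liver that had been transplanted for 6 months and were then recovered from bone marrow. They were sorted as lineage-negative cells carrying Cd45.2, c-Kit, Sca-1 and Cd150 and lacking Cd48. The 46 Ski-KO cells carried the label prefixes 051716 (27 cells) and 051816 (19 cells), and the 48 Ski-WT cells carried the prefix 061016. How the Ski allele was altered, how many donors and recipients were used and what a prefix stands for are not given in the sources used here. Each prefix belonged to a single genotype, and effects of the prefix and of the genotype therefore cannot be told apart. Each genotype counted as 1 sample, and no test between genotypes was made.

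Values are in TPM, the transcript share of a gene, which is scaled per transcript length and can be compared between genes. A gene is called detected in a cell at 5 TPM or more. A difference is the mean log2(TPM + 1) of the Ski-KO cells less that of the Ski-WT cells, a scale that understates changes at low values. Shares of cells carry exact Clopper-Pearson 95% intervals, which cover counting error only. Sequencing depth is unknown from TPM, so a gene that was not detected in a cell is not shown to be absent from it.

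The number of genes detected per cell had a median of 2094 in prefix 051716, 2288 in prefix 051816 and 2415.5 in the Ski-WT cells. The highest Pearson correlation between any pair of cells was 0.53, so no cell appeared to be deposited more than once. Among genes of the sort, Kit reached the limit in 38 Ski-KO cells (41 in Ski-WT) and Ly6a, which encodes Sca-1, in 27 and 29 in the same order. Slamf1, which encodes Cd150, was found in only 4 and 7 cells although its protein was sorted for, and Cd48 was found in 0 cells of either genotype. Elane, Mpo and Ctsg (myeloid), Hbb-b1 and Hba-a1 (erythroid) and Csf1r, C1qa and C1qb (macrophage) were detected in 0 cells of all prefixes. Cd68, also on the macrophage list, was detected in 3 Ski-KO cells and 1 Ski-WT cell. Other markers on the same lists were present: among the myeloid ones Prtn3 was detected in 24 and 33 cells and Lyz2 in 28 and 28, and the erythroid Car2 in 46 and 48. Pf4 (12 and 17 cells) and Gp9 (11 and 14 cells) of megakaryocytes and Cd79b (9 and 11 cells) of B cells were found too. The rest of these lists was less frequent. Of the megakaryocyte list, Itga2b was in 7 and 9 cells, Vwf in 2 and 3, Ppbp in 0 and 2 and Gp1bb in 0. Of the lymphoid list, Cd79a was in 1 and 0 cells and Il7r in 0. The summed TPM of the 6 myeloid markers ranged from 0 to 3654 in the Ski-KO cells and from 0 to 2678 in the Ski-WT cells.

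Most of the pathway genes were found in a minority of cells and reached high levels there. Skil was the most widely detected, in 43 of 94 cells (45.7%, interval 35.4% to 56.3%). Bmpr2 and Tgif1 followed with 19 cells each (20.2%, interval 12.6% to 29.8%), Smad1 with 18, Smad4 with 16, Smad2 with 14 and Smad7 with 12. The interval of Skil lay above those of all 9 other genes, whereas the intervals of neighbours from Bmpr2 to Smad7 overlapped. Smad3 (9 cells), Tgfbr2 (8 cells) and Tgfbr1 (3 cells) were the rarest. The highest number of the 10 genes detected in a cell was 5, in 3 cells, and 12 cells held none.

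By mean level over all cells the order was different. Tgif1 had the highest mean, 88.6 TPM, followed by Skil (52.0 TPM), Smad1 (30.6 TPM), Bmpr2 (22.98 TPM), Tgfbr2 (22.7 TPM), Smad3 (21.1 TPM) and Smad4 (16.3 TPM). Smad2 (6.90 TPM), Smad7 (3.82 TPM) and Tgfbr1 (2.50 TPM) were lowest. With the 3 prefixes weighted equally, 4 genes changed places: Tgfbr2 (24.2 TPM) came before Bmpr2 (19.7 TPM), and Smad4 (19.1 TPM) before Smad3 (17.5 TPM). Single cells set several of these means. One Ski-WT cell with 198.63 TPM held 84.6% of all Tgfbr1 signal, one Ski-WT cell with 835.4 TPM held 39.1% of all Tgfbr2 signal, and one Ski-KO cell with 1807.67 TPM held 21.7% of all Tgif1 signal. For Skil the highest cell held 9.91%.

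**Figure D1:**
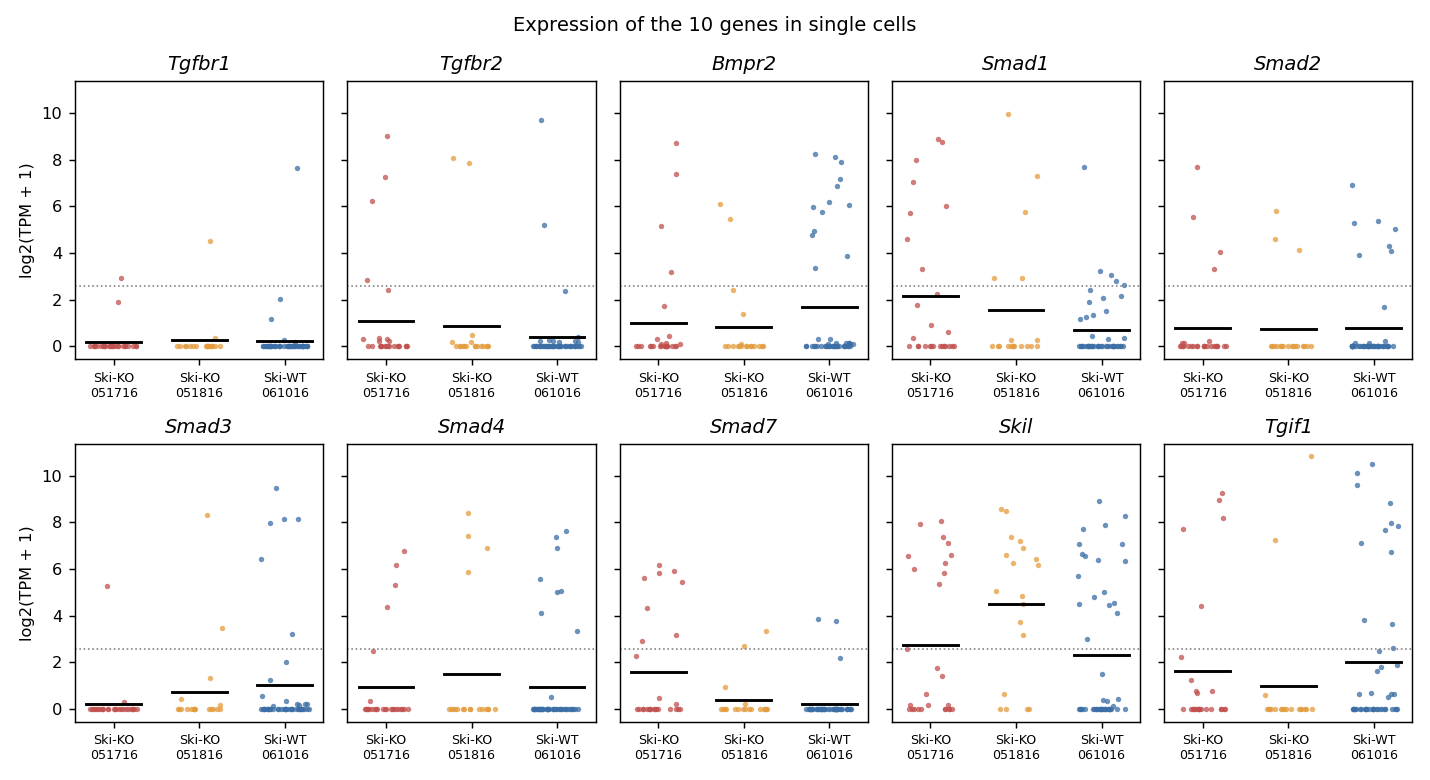
Each point is the log2(TPM + 1) of a gene in a cell (vertical axis), arranged by label prefix (horizontal axis), with black lines at the prefix means and a dotted line at 5 TPM. Skil fills the upper range in 14 of the 19 cells of prefix 051816, while Tgfbr1 exceeds the dotted line in 1 cell of each prefix.

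The receptors were detected unevenly. Tgfbr1 was found in 1 cell of each prefix, at 6.62 TPM in prefix 051716, 21.7 TPM in prefix 051816 and 198.63 TPM in the Ski-WT cells. No difference between genotypes could be read from these 3 cells. Tgfbr2 was found in 4 cells of prefix 051716 (6.11, 73.81, 150.11 and 519.82 TPM), 2 of prefix 051816 (231.54 and 270.63 TPM) and 2 of the 48 Ski-WT cells (36.21 and 835.4 TPM). The ranges of the detected cells overlapped between genotypes. The share was 13.04% among Ski-KO cells, with an interval of 4.94% to 26.3%, and 4.17% among Ski-WT cells, with an interval of 0.509% to 14.3%, and the difference of log2 means was 0.60. Mean Tgfbr2 was 27.4 TPM in Ski-KO and 18.3 TPM in Ski-WT cells, or 16.4 and 0.889 TPM without the highest cell of each genotype, so a single Ski-WT cell decides how far apart the mean levels lie.

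Bmpr2, which encodes a type II receptor for bone morphogenetic proteins, had the opposite direction. It was detected in 4 of 27 cells of prefix 051716, from 7.98 to 420.35 TPM, in 2 of 19 cells of prefix 051816, at 42.75 and 68.3 TPM, and in 13 of 48 Ski-WT cells, from 9.26 to 301.66 TPM with a median of 66.3 TPM. Detected cells thus spanned similar levels in both genotypes and were more frequent among the Ski-WT cells. The share was 13.04% in Ski-KO cells and 27.1% in Ski-WT cells (interval 15.3% to 41.8%), and the intervals overlapped. The log2 difference was -0.75, with -0.67 in prefix 051716 and -0.87 in prefix 051816.

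Among the receptor-activated Smads, Smad1 differed most. It was detected in 8 cells of prefix 051716, from 9.06 to 466.36 TPM with a median of 96.6 TPM, and in 5 cells of prefix 051816, at 6.53, 6.58, 53.71, 154.57 and 975.04 TPM. In the Ski-WT group 5 cells held 5.11, 5.88, 7.43, 8.39 and 202.39 TPM. All but 1 of the detected Ski-WT cells therefore lay under 10 TPM, whereas 10 of the 13 detected Ski-KO cells lay above that level. The shares were 28.3% (interval 15.99% to 43.5%) and 10.4% (interval 3.47% to 22.7%), which overlap, and the log2 difference was 1.19, with 1.44 in prefix 051716 and 0.83 in prefix 051816. Mean Smad1 was 57.1 TPM in Ski-KO cells and 5.21 TPM in Ski-WT cells, a 10.97-fold ratio of linear means. Without the highest cell of each genotype these means were 36.7 and 1.01 TPM.

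Smad2 and Smad3, the transducers of TGF-beta itself, gave different values. Smad2 was detected in 4 cells of prefix 051716, 3 of prefix 051816 and 7 Ski-WT cells, which are shares of 15.2% (interval 6.34% to 28.9%) and 14.6% (interval 6.07% to 27.8%) by genotype. Its log2 means were nearly equal at 0.77 in both genotypes. Smad3 was detected in 1 cell of prefix 051716 (37.05 TPM), 2 of prefix 051816 (10.16 and 318.2 TPM) and 6 Ski-WT cells (8.29, 85.7, 250.32, 277.9, 278.05 and 713.57 TPM). Its shares, 6.52% (interval 1.37% to 17.9%) and 12.5% (interval 4.73% to 25.2%), overlapped, and the log2 difference was -0.59. The Ski-KO mean of Smad3 rested on 1 cell, since it was 7.99 TPM with all cells and 1.10 TPM without the highest.

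Smad4, the partner shared by both branches, was detected in 8 cells of each genotype. The values ran from 19.48 to 108.3 TPM in 4 cells of prefix 051716, from 57.12 to 331.34 TPM in 4 cells of prefix 051816 and from 9.14 to 199.25 TPM in the 8 Ski-WT cells. The log2 mean minus that of the Ski-WT cells was -0.01 in prefix 051716 and 0.55 in prefix 051816, so the prefixes of the same genotype gave different answers.

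The inhibitor Smad7 was found mostly in prefix 051716. It was detected in 8 of 27 cells of prefix 051716 (29.6%, interval 13.8% to 50.2%), at 6.53, 8.02, 19.3, 42.15, 48.33, 56.09, 58.8 and 70.36 TPM. Only 2 of 19 cells of prefix 051816 (5.49 and 9.21 TPM) and 2 of 48 Ski-WT cells (12.79 and 13.46 TPM) had it. The log2 difference from the Ski-WT cells was 1.36 in prefix 051716 and 0.18 in prefix 051816, so the pooled difference of 0.87 came mostly from the first prefix. All values above 13.46 TPM were in that prefix.

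Skil showed the reverse arrangement of the prefixes. It was detected in 11 of 27 cells of prefix 051716 (40.7%, interval 22.4% to 61.2%) and 14 of 19 cells of prefix 051816 (73.7%, interval 48.8% to 90.9%). Of the 48 Ski-WT cells, 18 had it (37.5%, interval 23.95% to 52.6%). Among the cells that held it, the median was 91.8 TPM (range 5.01 to 261.04), 80.1 TPM (8.02 to 373.12) and 81.3 TPM (6.96 to 483.9) in the same order. Prefix 051816 thus had the highest share of cells with Skil, though its interval overlapped those of the other prefixes, while the median level in such cells lay between 80.1 and 91.8 TPM. The log2 difference from the Ski-WT cells was 0.41 in prefix 051716 and 2.19 in prefix 051816. Both Ski-KO prefixes share a genotype label, and the gap between them in Skil was larger than the gap between prefix 051716 and the Ski-WT cells.

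Tgif1, a homeobox co-repressor gene, was detected in 5 cells of prefix 051716 (20.37, 207.53, 288.89, 497.24 and 617.91 TPM), 2 of prefix 051816 (148.96 and 1807.67 TPM) and 12 Ski-WT cells (5.05 to 1430.38 TPM, median 217.7 TPM). The shares were 15.2% (interval 6.34% to 28.9%) in Ski-KO and 25% (interval 13.6% to 39.6%) in Ski-WT cells. The log2 difference was -0.66. In prefix 051816 the mean of 103 TPM exceeded the Ski-WT mean of 98.6 TPM but was 8.31 TPM without the highest cell, so its direction on the linear scale rests on 1 cell.

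**Figure D2:**
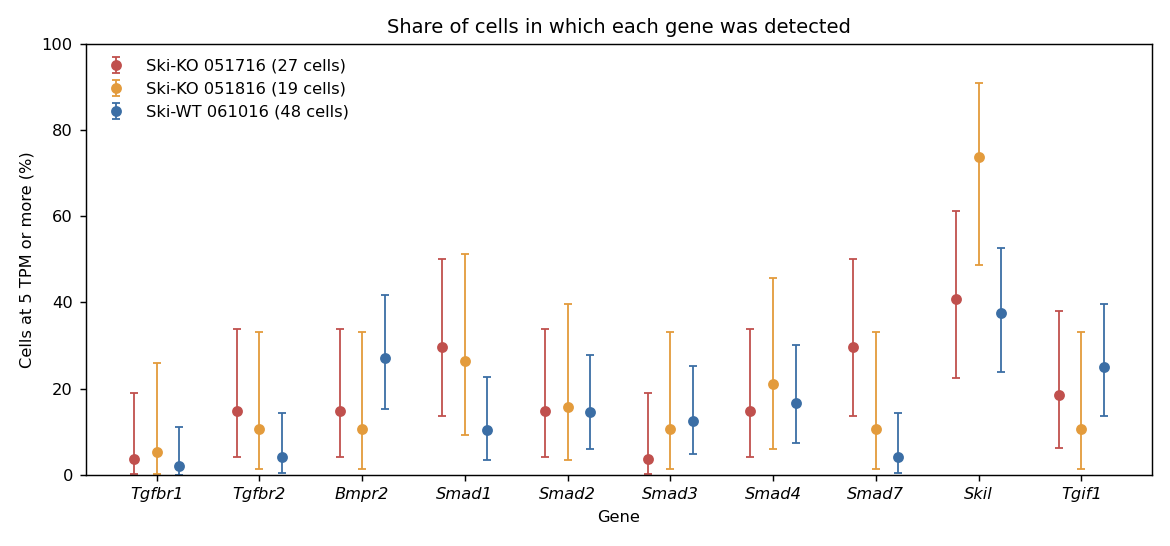
Points give the percentage of a prefix's cells that reached 5 TPM (vertical axis) for each gene (horizontal axis), and bars are exact 95% binomial intervals. Skil in prefix 051816 stands at 73.7%, and for Smad7 prefix 051716 (29.6%) lies above prefix 051816 (10.5%) and the Ski-WT cells (4.17%).

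Set side by side, 4 of the 10 genes were higher in both Ski-KO prefixes than in the Ski-WT cells (Tgfbr2, Smad1, Smad7 and Skil), 3 were lower in both (Bmpr2, Smad3 and Tgif1), and Tgfbr1, Smad2 and Smad4 were mixed. Both prefix differences use the same Ski-WT cells. Of the 6240 genes that passed the 25% filter, 18.5% were higher and 44.3% lower in both prefixes. A looser limit, above 0 in 5% or more of all 94 cells, was added after the values were seen and is passed by all 10 genes. There the shares were 19.6% and 41.3% of 10370 genes. A log2 difference of 1 or more was found for 2 of the 10 genes, Smad1 and Skil, against 2.08% of the 6240 genes and 1.25% of the 10370. A difference of -1 or less was found for 0 of the 10, against 11.8% and 7.26%. The median difference was 0.11 over the 10 genes, against -0.12 over the 10370 genes and -0.22 over the 6240, and in prefix 051716 alone the median of the 10 was -0.00014. The genes were chosen with earlier results of these data known, and nothing particular to the group is read from these counts.

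**Figure D3:**
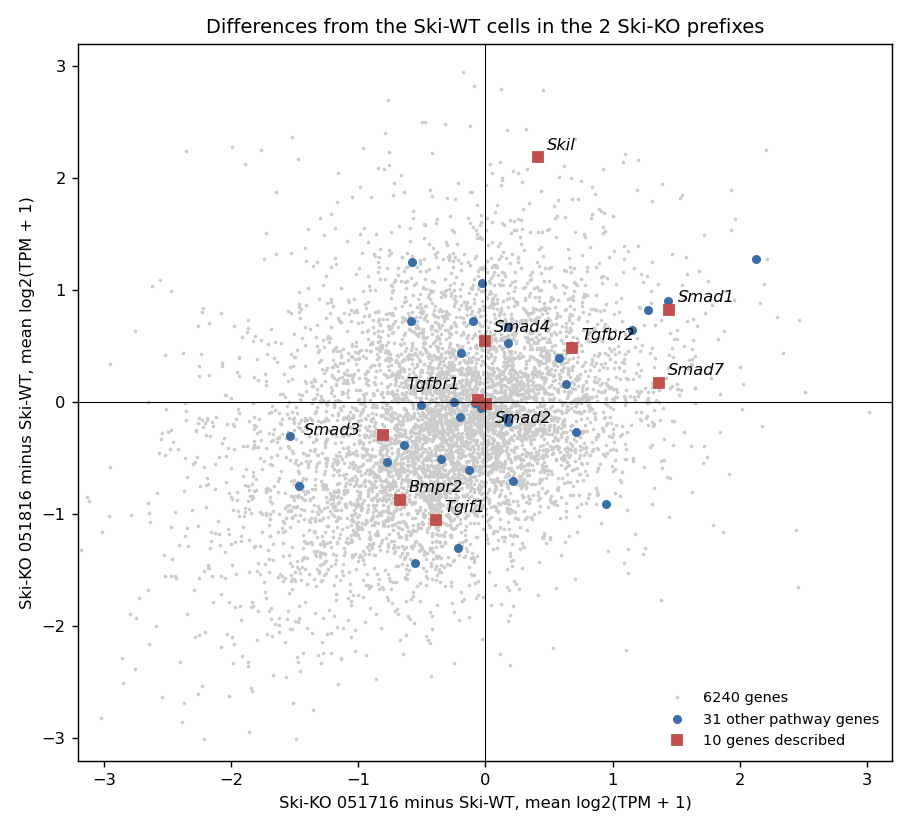
Mean log2(TPM + 1) minus the Ski-WT mean, with prefix 051716 on the horizontal and prefix 051816 on the vertical axis; grey points are the 6240 genes that passed the 25% filter (14 lie outside the axes), blue points 31 other pathway genes and red squares the 10 genes described. Skil lies high at 0.41 and 2.19, Smad7 lies to the right at 1.36 and 0.18, and Smad2 lies at the crossing of the axes.

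The other genes of the pathway ranged widely, and 8 of the 67 in the table were detected in more cells than Skil, led by Tsc22d1 with 65 of 94. Of 88 listed genes, 67 were in the table and 31 passed the 25% filter, of which 8 (25.8%) were higher in both prefixes, 12 (38.7%) lower in both and 11 mixed, beside 18.5% and 44.3% of all 6240 genes. Their median difference was 0.03. Of 17 listed ligands and genes for their release, 10 were in the table and 1 passed, Itgav, an integrin subunit gene, with -0.33. Tgfb1, the gene of the ligand itself, was detected in 2 Ski-KO and 0 Ski-WT cells. A further 2 receptor genes passed and were mixed, the co-receptor genes Tgfbr3 and Eng. Smad5, which carries bone morphogenetic protein signals like Smad1, differed by 0.38 but was detected in 11 and 9 cells, with means of 24.3 and 25.6 TPM.

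Of 16 regulators of Smads and receptors in the table, 6 passed. Usp9x, a deubiquitinase gene whose product acts on Smad4, differed by 1.09, with 24 Ski-KO and 16 Ski-WT cells at the limit. Strap, whose product binds the TGF-beta receptors and Smad7, differed by 0.32. Usp15, a deubiquitinase gene of the receptor complex, differed by -0.66, although its mean was 200 TPM in Ski-KO and 183 TPM in Ski-WT cells. Of 15 nuclear partners in the table, 13 passed, with 1 higher and 7 lower (53.8%, beside 44.3% of all 6240 genes) in both prefixes. Runx3, a Runt-domain factor gene, was the higher one, at 0.94, while its relative Runx1 differed by -0.67. Hdac1, a histone deacetylase gene, differed by -1.17 with means of 233 and 207 TPM.

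Among the 18 target genes measured, 8 passed, with 4 higher (50%) and 3 lower (37.5%) in both prefixes, beside 18.5% and 44.3% of all 6240 genes. With so few genes nothing is read from these shares. Rgs1, a regulator of G protein signalling, differed by 1.78 and Hes1, a transcriptional repressor gene, by 1.21. Klf10, an early gene of TGF-beta in many cells, differed by -0.92, with 10 Ski-KO and 20 Ski-WT cells at the limit but means of 115 and 105 TPM. Tsc22d1, a leucine zipper gene first found by its response to TGF-beta, differed by -1.02.

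The next question was which receptors and Smads were detected in the same cell. At least 1 of the 3 receptors was found in 28 of 94 cells, of which 13 were Ski-KO (28.3%, interval 15.99% to 43.5%) and 15 Ski-WT (31.2%, interval 18.7% to 46.3%). Receptor-activated Smads were present in 19 Ski-KO cells, a share of 41.3% with an interval of 27% to 56.8%, and in 16 Ski-WT cells, a share of 33.3% with an interval of 20.4% to 48.4%. Cells with both kinds numbered 6 in Ski-KO (13.04%, interval 4.94% to 26.3%) and 3 in Ski-WT (6.25%, interval 1.31% to 17.2%). Just 1 cell of all 94 held a receptor, a receptor-activated Smad and Smad4. It was a Ski-WT cell with Bmpr2 at 25.99 TPM, Smad1, Smad4 and Tgif1.

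The subunits of the TGF-beta receptor were not detected together. Both Tgfbr1 and Tgfbr2 reached the limit in 0 of 46 Ski-KO cells (interval 0% to 7.71%). In Ski-WT they did so in 0 of 48 cells (interval 0% to 7.40%). With Tgfbr1 in 3 cells, no more than 3 cells could have held the pair. With any value above 0 the pair was present in 1 cell of each genotype. The pair with Bmpr2 was rare too: Bmpr2 occurred with Tgfbr2 in 1 Ski-KO and 1 Ski-WT cell and with Tgfbr1 in 0 cells.

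Of the 45 pairs that the 10 genes form, 6 were found in 0 of the 94 cells, and each of these 6 involved a TGF-beta receptor gene. They joined Tgfbr1 with Tgfbr2, Bmpr2, Smad2 and Smad3, and Tgfbr2 with Smad2 and Smad3. Tgfbr1 and Tgfbr2 were also the 2 rarest of the 10 genes. The 11 cells with Tgfbr1 or Tgfbr2 and the 21 cells with Smad2 or Smad3 did not overlap at this limit (0 of 94 cells, interval 0% to 3.85%). No more than 11 cells could have held the combination, and Smad2 or Smad3 was in only 21 of the 83 other cells. With so few receptor cells, no separation of the genes is read from the 0. The 0 also depended on the limit of detection, because 13 of the 32 cells with Tgfbr1 or Tgfbr2 above 0 also had Smad2 or Smad3 above 0. In the branch for bone morphogenetic proteins, Bmpr2 and Smad1 were together in 1 cell of each genotype.

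Smad4 and a receptor-activated Smad were found together in few cells, since Smad4 itself was in 8 of each genotype. In Ski-KO the combination was present in 2 of 46 cells (4.35%, with an interval of 0.531% to 14.8%). In Ski-WT it was present in 6 of 48 (12.5%, with an interval of 4.73% to 25.2%). A receptor-activated Smad was thus present in 6 of 8 Ski-WT cells with Smad4 (75%, interval 34.9% to 96.8%) and 10 of 40 without it (25%, interval 12.7% to 41.2%). In Ski-KO the counts had the other direction, 2 of 8 (25%, interval 3.19% to 65.1%) and 17 of 38 (44.7%, interval 28.6% to 61.7%), and in each genotype the intervals overlapped. In the Ski-WT cells Smad4 occurred with Smad2 in 3 cells, with Smad3 in 2 and with Smad1 in 2. In the Ski-KO cells it occurred with Smad2 in 1 cell, with Smad1 in 2 and with Smad3 in 0.

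**Figure D4:**
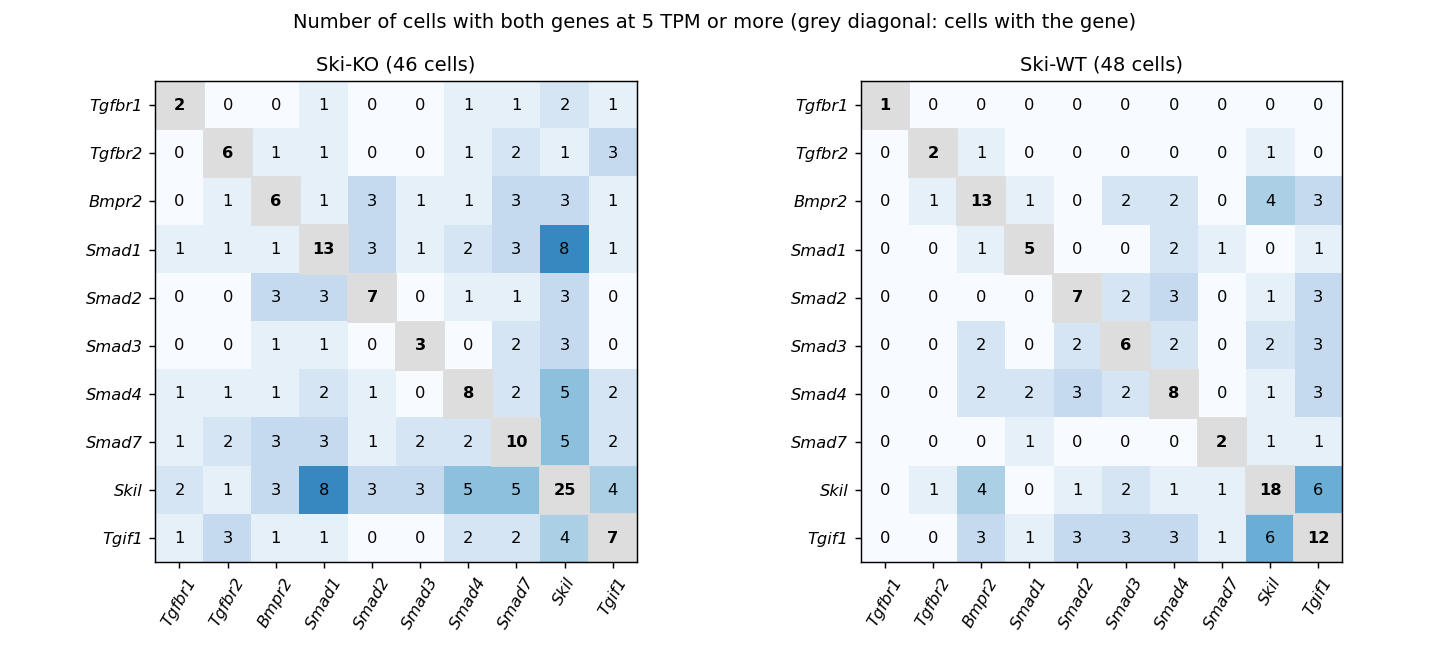
Counts of cells that held both the gene of the row and the gene of the column, among 46 Ski-KO cells (left) and 48 Ski-WT cells (right), with darker blue for more cells and the number of cells with a gene on the grey diagonal. The darkest pair is Smad1 with Skil in the Ski-KO cells (8 cells), a pair found in 0 Ski-WT cells.

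The pair found most often in the Ski-KO cells was Smad1 with Skil. Skil was detected in 8 of 13 Ski-KO cells with Smad1 and 17 of 33 without it. In the Ski-WT cells it was detected in 0 of 5 cells with Smad1 and 18 of 43 without it. Within prefix 051716 the counts were 5 of 8 and 6 of 19, and within prefix 051816 they were 3 of 5 and 11 of 14, so the prefixes pointed in different directions. In the Ski-WT cells the pair found most often was Skil with Tgif1, in 6 cells, with Skil in 6 of 12 cells that held Tgif1 and in 12 of 36 that did not.

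Beside Tgfbr2, Skil was lower in both Ski-KO prefixes, whereas the pair of Ski-WT cells with Tgfbr2 gave the other sign. Of all 8 cells with Tgfbr2, 2 held Skil (25%), compared with 41 of the 86 others. In prefix 051716 none of the 4 cells with Tgfbr2 held Skil at 5 TPM (0, 0, 0 and 0.12 TPM). In prefix 051816 the values were 0 and 75.93 TPM, and in the Ski-WT cells they were 0 and 209.15 TPM. The mean log2 level of Skil in cells with Tgfbr2 minus cells without it was -3.17 in prefix 051716, -1.55 in prefix 051816 and 1.595 in the Ski-WT cells, with an equally weighted mean of -1.04 over the 3 prefixes. The 4 cells of prefix 051716 also had fewer detected genes, with a median of 1771 against 2214 in the other cells of that prefix. In prefix 051816, where Skil was also lower beside Tgfbr2, the 2 cells had more detected genes, 3068.5 against 2181, and in the Ski-WT cells the medians were 2063.5 and 2466. After a linear adjustment of Skil within each prefix for how many genes a cell had detected, the mean over the 3 prefixes was -0.29.

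For the other receptors the pattern of Skil varied. Both Ski-KO cells with Tgfbr1 held Skil, at 5.01 and 12.31 TPM, and the Ski-WT cell with the highest Tgfbr1 held none. Skil was detected in 7 of 19 cells with Bmpr2 (36.8%) and 36 of 75 without it. By genotype this was 3 of 6 Ski-KO cells and 4 of 13 Ski-WT cells with Bmpr2. For any of the 3 receptors the counts were 2 of 8 cells with and 9 of 19 without in prefix 051716, 4 of 5 and 10 of 14 in prefix 051816, and 5 of 15 and 13 of 33 in the Ski-WT cells. The differences had no common direction over the prefixes.

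The relation of Smad7 to the receptors could be described in prefix 051716 alone, as the other prefixes held 2 Smad7 cells each. In prefix 051716 it was detected in 5 of 8 cells with a receptor (62.5%, interval 24.5% to 91.5%) and 3 of 19 without one (15.8%, interval 3.38% to 39.6%), with overlapping intervals. These 5 cells were made up of 2 of the 4 with Tgfbr2, 3 of the 4 with Bmpr2 and the 1 with Tgfbr1, with 1 cell counted under both Tgfbr2 and Bmpr2. Its values there were 8.02, 19.3, 42.15, 48.33 and 58.8 TPM. In the Ski-WT cells Smad7 was found in 0 of 15 cells with a receptor and 2 of 33 without, and in prefix 051816 in 0 of 5 and 2 of 14, numbers too small to show whether the pattern differed there. Receptors were about as frequent in the 3 prefixes, at 29.6%, 26.3% and 31.2% of cells.

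The 3 cells with 5 of the 10 genes, the highest number in any cell, were all in prefix 051716, and each held Smad7 and a receptor. The first had Bmpr2 at 7.98 TPM, Smad7 at 42.15 TPM and Skil at 166.28 TPM with Smad1 and Smad3. The second had Tgfbr2 at 150.11 TPM, Bmpr2 at 34.61 TPM and Smad7 at 48.33 TPM with Smad4 and Tgif1, and Skil at 0. The third had Tgfbr1 at 6.62 TPM, Smad7 at 19.3 TPM and Skil at 5.01 TPM with Smad1 and Tgif1. Cells with more detected genes did not hold more of the 10: the Pearson correlation across cells was 0.02 over all 94 cells and 0.03, -0.08 and 0.13 within prefixes 051716, 051816 and 061016.

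Skil and Smad7 themselves were detected together in 5 Ski-KO cells and 1 Ski-WT cell. Smad7 was found in 5 of 25 Ski-KO cells with Skil and 5 of 21 without it, and either gene or both were found in 30 of the 46 (65.2%, interval 49.8% to 78.6%). In Ski-WT either gene or both were found in 19 of 48 (39.6%, interval 25.8% to 54.7%), and the intervals overlapped. By prefix the share was 59.3% in 051716 and 73.7% in 051816. Smad7 was found mostly in the first of these prefixes, and Skil was more frequent in the second. Ski, the targeted gene and the close relative of Skil, was detected in 3 Ski-KO and 6 Ski-WT cells, too few to check the genotype labels. Skil was present in 3 of these 3 and 5 of these 6, against 22 of 43 and 13 of 42 cells without Ski. The 9 cells with Ski had a median of 2590 detected genes and the other 85 had 2288, and the part of this in the result was not tested.

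**Figure D5:**
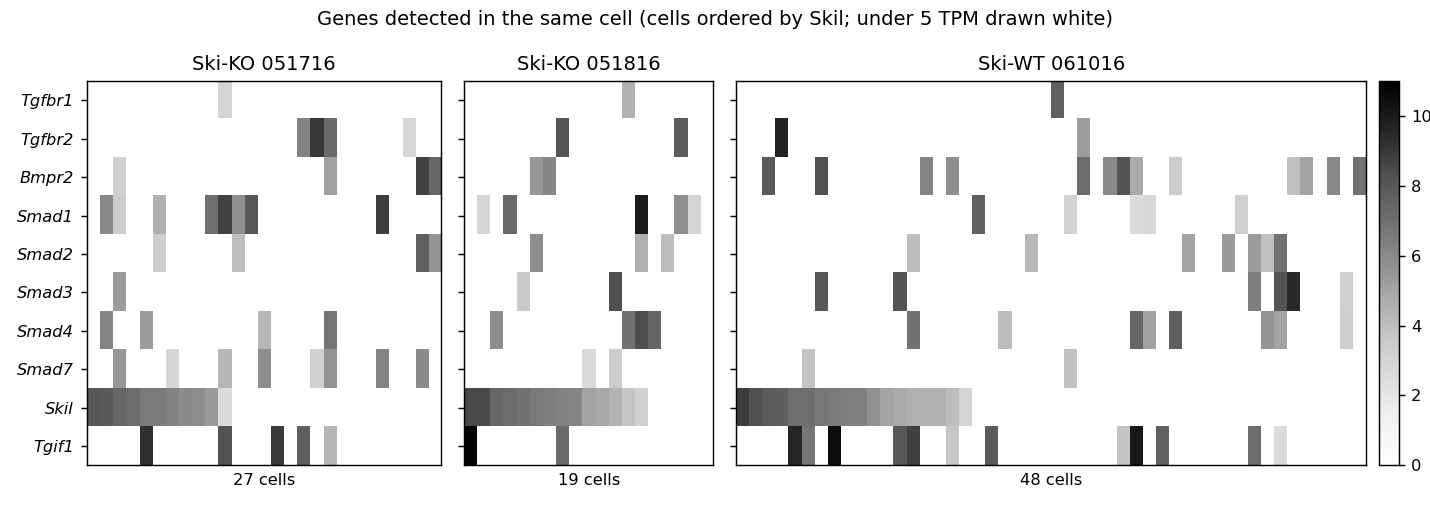
Columns are the 27, 19 and 48 cells of the 3 prefixes in order of falling Skil, rows are the 10 genes, and the grey shade gives log2(TPM + 1), with values under 5 TPM drawn white. Tgfbr2 in prefix 051716 sits in 4 cells to the right of the Skil cells, and the rows of Tgfbr1 and Tgfbr2 share no column with those of Smad2 and Smad3.

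Correlations of log2 values across cells are given as a description, over 27, 19 and 48 cells in the order of prefixes 051716, 051816 and 061016. The cells of a prefix share that label and whatever it stands for. Skil and Tgfbr2 had -0.37, -0.17 and 0.19, and Skil and Bmpr2 had -0.18, 0.28 and -0.04. Smad7 and Bmpr2 had 0.38, -0.18 and -0.14. Smad7 and Smad3 had 0.35, 0.68 and -0.10, where the values of 0.35 and 0.68 each rest on 1 cell that held both genes. Skil and Smad7 had -0.19, -0.06 and 0.20. With so many cells at 0 these weak values are no finding.

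The genes whose pattern over cells was most like that of Skil were ranked by the mean of the 3 correlations within prefixes. Rpl5, a ribosomal protein gene detected in all 94 cells, came first with 0.47, 0.50 and 0.28 (mean 0.42). Ormdl1, a regulator gene of sphingolipid synthesis, followed with a mean of 0.39, and Skil was detected in 15 of the 17 cells that held it. Rnf149 (0.36), Nbeal1 (0.36) and Prr14l (0.36) came next. Over 6225 genes the middle 90% of such means lay between -0.19 and 0.19. Genes ranked highest of so many lie outside that range through the ranking itself. The ranking and the 15 of 17 cells come from the same values, so no link between the genes is read from them. For Smad7 the genes, ranked in the same way and with the same limit, were Poli (0.44), Ppwd1 (0.44), Oxr1 (0.43), Camk1 (0.41) and Pgpep1 (0.39). Each had its highest correlation in prefix 051816, where Smad7 was detected in only 2 cells.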

How the data were processed

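Sorted cells went through the Fluidigm C1 system for capture, SMARTer for cDNA and Nextera XT for libraries, per the labels' protocols. The deposited table holds log2(TPM + 1) values that the authors made for 94 cells and 13244 genes; the build mm9 and the tools RSEM and Bowtie2 come per the submitters' processing notes, and the settings are not given in the sources used here. Read depth is therefore unknown, and the number of genes at 5 TPM or more stood in for it.

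Here the values were turned back to TPM by removing the pseudocount of 1. Each cell was assigned to its genotype and prefix by its label. As no animal or culture is named, each genotype was 1 sample and no p-value was computed. Means of log2(TPM + 1) were compared over all genes that exceeded 0 in 25% or more of the cells of either genotype, which 7 of the 10 genes did. Shares carry exact Clopper-Pearson 95% intervals, also where the count is 0. Scripts (scipy 1.17.1, pandas 2.3.3 and numpy 2.4.6 under Python 3.11.15) were tested on simulated data.

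All 10 genes are described. From each pathway list, up to 2 of the highest and 2 of the lowest genes were named, ranked by the smaller of the 2 prefix differences among genes that passed and had the same sign in both. For Skil and Smad7 the 5 genes with the highest mean within-prefix correlation were named. Genes named outside this rule (Tgfb1, Tgfbr3, Eng and the markers) were chosen after their values were seen. Ski did not pass the filter and was also named outside the rule, as the targeted gene. The 10 genes and the lists were chosen with earlier results of these data known. Alternatives changed the pseudocount, the detection limit, the scaling, the filter, the prefix and the receptor; a looser gene filter, detection above 0 and a split by any receptor were added after the data were seen.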

Additional observations from a re-analysis of the deposited data

How the results depend on the processing

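The median difference over the 10 genes (0.11) was 0.49 as a log2 ratio of mean TPM, 0.60 over the 7 genes that passed the 25% filter and -0.00014 in prefix 051716 alone. The filter favours genes that differ and left out Tgfbr1, Smad2 and Smad4, whose prefixes were mixed, so nothing is read from the 0.60. The Skil level with against without Tgfbr2 (-1.04) was 0.14 when cells were split by Bmpr2 and 1.595 in the Ski-WT cells alone. The same value for Smad7 (0.21) was 0.76 split by Tgfbr1, 0.81 split by Bmpr2 and -0.21 in the Ski-WT cells alone. In prefix 051716 it was 0.74 and in prefix 051816 it was 0.11. Smad7 was detected in 0 of 2 cells with Tgfbr2 in prefix 051816 and in 0 of 2 in the Ski-WT cells, so the mean of 0.21 describes no common pattern. The cause was not tested. For the main results 44 alternative values stayed near the reported one, 4 moved and 4 changed sign. Near means within the SD over prefixes, within 1.5 times for a count, or the same direction for a value in percentage points. For the share of cells with Tgfbr1 and Tgfbr2, near means inside the exact interval of the reported share. By that rule 2.17% and 2.08% counted as near 0%. For the differences of single genes the numbers were 81, 16 and 0, with signs compared for the 7 genes whose prefixes had the same direction. Part of the 81 was fixed in advance. Values from 1 Ski-KO prefix alone were compared with the spread of the same 2 prefixes, so they had to stay near and keep their sign. Skil at 0.41 and at 2.19 thus both counted as near 1.15. Values under the 25% filter repeated the reported ones. The 81 therefore does not measure agreement between the prefixes. Part of the 44 was fixed too. With 0 cells at 5 TPM, the share with Tgfbr1 and Tgfbr2 had to be 0 at 10 TPM and in each Ski-KO prefix. The counts of genes higher or lower in both prefixes had to repeat under the 25% filter, as the genes left out were mixed. For Skil by Tgfbr2 the prefixes lay far apart. Thus -2.36 in the Ski-KO prefixes alone and -0.29 after adjustment for detected genes both counted as near -1.04. The 44 therefore does not measure stability. No paired analysis was possible because the numbers in the cell labels only number cells and no test was made. Depth is unknown, so pairs found in 0 cells are limited by detection: Tgfbr1 and Tgfbr2 together were in 2.17% of Ski-KO and 2.08% of Ski-WT cells when any value above 0 counted.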
